A study of Mus musculus with 4 samples.

Results

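Cholesterol is built from acetyl-CoA by a chain of enzymes, and 7 genes of that chain were followed in mouse blastocysts: Hmgcs1, Idi1, Fdps, Sqle, Lss, Cyp51 and Dhcr7. They were chosen by symbol, as the rows of the deposited tables whose gene column held one of these names, among 20714 symbols present in both assays. The RNA level (mRNA) was measured by RNA-seq and the ribosome protected fragments (RPF) by Ribo-seq. Each assay had 2 replicates, which made 4 libraries. The study followed mRNA, translation and protein from the oocyte to the blastocyst, and the other stages were not analysed here.

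All 4 libraries came from untreated wild-type embryos of 4-week-old C57BL/6J mothers and PWK/PhJ fathers, although the strain entry of the labels reads C57BL/6N x PWK. The embryos were taken as 8-cell embryos, grown to blastocysts in KSOM medium in vitro and freed of the zona pellucida with acidic Tyrode's solution. RNA-seq used polyA RNA and Smart-seq2, whereas Ribo-seq used total RNA lysed with cycloheximide, digested with RNase I and spun through a sucrose cushion. Nothing states that the replicates came from separate collections of embryos, so p-values measure the spread between these libraries, which may be technical. These were whole embryos, and fewer cells of a type and less RNA per cell cannot be told apart.

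The first committed steps of the pathway make mevalonate, the middle steps turn it into isoprenoid diphosphates and squalene, and the late steps close the sterol rings and trim them to cholesterol. Isoprenoid diphosphates also feed protein prenylation, ubiquinone and dolichol. The transcription factors SREBF1 and SREBF2 leave the endoplasmic reticulum when sterols are low and raise the transcription of most genes of the pathway by binding sterol regulatory elements in their promoters. Dividing cells need cholesterol for new membranes, from synthesis or from uptake.

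The labelled stage was checked against marker genes. All 6 trophectoderm markers were above 0 in every library, with a summed mRNA level of 2792 to 3029 FPKM and a summed RPF level of 5373 to 5833 FPKM. All 5 epiblast markers were above 0 in every library, with a summed level of 144.6 and 58.1 FPKM in mRNA and 725.4 and 851 FPKM in RPF. The 4 primitive endoderm markers were above 0 in every library except the second RNA-seq library, where 2 of 4 were, and their summed level was 12.5 and 9.34 FPKM in mRNA and 154.2 and 142.9 FPKM in RPF. The summed levels of the 3 lists thus differed in how far RPF exceeded mRNA. Most of the trophectoderm sum came from Krt18 (mean 1756 FPKM of mRNA and 3397 of RPF) and Krt8 (958 and 1400). Genes within that list differed too, with Cdx2 at a mean of 21.3 FPKM of mRNA and 291.6 of RPF. The sums therefore do not describe each marker. The part of cell types in the differences between assays given for the members was not tested. The summed level of 5 oocyte markers was at most 1.92 FPKM, that of 5 cumulus and granulosa markers at most 1.09 FPKM, and that of 5 blood markers at most 4.93 FPKM. Replicates correlated across genes with a Spearman coefficient of 0.924 for mRNA (25039 symbols) and 0.898 for RPF (20756 symbols), where genes are not independent replicates. These include the many symbols at 0, as 12863 and 12524 were above 0 in RNA-seq 1 and 2, and 10252 and 9749 in Ribo-seq 1 and 2. Expressed genes alone were not correlated. The steps between low FPKM values implied about 5472390 and 5215920 fragments in the RNA-seq libraries and 534788 and 484090 footprints in the Ribo-seq libraries.

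Sequences bear on 3 results: where ribosomes start on each coding sequence, which reads can be told from copies elsewhere in the genome, and where Hmgcs1 lies in the build that the authors used (mm9, which is NCBIM37). The start codon contexts of the 6 members annotated in GENCODE vM1 are shown because RPF were counted on coding sequences, with the start codon in capitals, 9 bases before it and 4 bases after it.
Idi1: gctggaggcATGtggc
Fdps: tctgtcagaATGaatg
Sqle: ttttgagccATGtgga
Lss: agtgctgtcATGactg
Cyp51: acggtcgggATGgtac
Dhcr7: cagggcctgATGgctt
A purine stood 3 bases before the start codon in 5 of the 6, the exception being Dhcr7, and in 84.1% of 18699 annotated genes. A G followed the start codon in Cyp51 and Dhcr7, against 49.4% of all genes. None of the 6 held both features except Cyp51, which 41.4% of all genes did.

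Idi1 and Fdps had near-identical copies elsewhere. Each coding sequence was read in windows of 28 bases, about the length of a footprint, and the places of each window on NCBIM37 were counted. The window of each gene with the most places is shown, covering bases 229 to 256 of the Idi1 coding sequence and bases 428 to 455 of the Fdps coding sequence.
Idi1: tgtattcttattgatgaaaatgacaata
Fdps: tgaagttctactgcagggagcagcccta
The Idi1 window lay in the gene itself at chr13:8886069-8886096 (+ strand) and at 4 other places, of which chr2:53555751-53555778 (- strand) lay in the pseudogene Gm13502 and the others in no annotated gene. The Fdps window lay in the gene itself at chr3:88899307-88899334 (- strand) and at 6 other places, among them chr10:93241832-93241859 (+ strand) in the pseudogene Gm3571 and chr13:68995836-68995863 (+ strand) within the protein-coding gene Adcy2.

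Of all windows, 82.7% of those of Idi1 and 89.2% of those of Fdps lay at 2 to 20 places, and 16.8% and 9.28% at 1 place. Gm13502 alone held 86.2% of the Idi1 windows and Gm3571 alone held 70.4% of the Fdps windows, including windows that span exon junctions of the gene. In Idi1 this is more than the 82.7% at 2 to 20 places, so some windows at 1 place lay only in Gm13502. The share at 1 place is thus not a share unique to the gene. In Sqle, Lss, Cyp51 and Dhcr7 no window had a second place. The authors kept reads with up to 20 places, so the levels of Idi1 and Fdps could include or share reads of the copies, which was not tested.

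**Figure D1:**
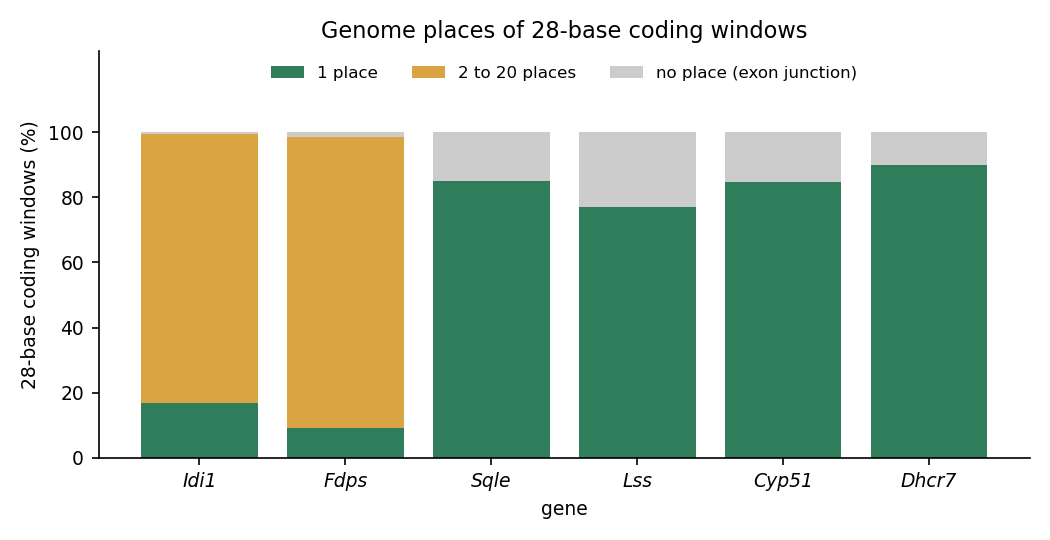
Share of 28-base coding windows (y axis, percent) at 1 place, at 2 to 20 places and at no place of NCBIM37 for the 6 members with an annotated coding sequence (x axis). A window with no place spans an exon junction. A junction window found only in a copy counts as 1 place. The bars of Idi1 and Fdps are mostly windows with 2 to 20 places (82.7% and 89.2%), and the other 4 genes have none.

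Promoter sequences, from 250 bases before the start to 50 after it, came from RefSeq (GRCm38.p6), which matched 5 of the 7 members, Hmgcs1, Idi1, Lss, Cyp51 and Dhcr7. They were placed on NCBIM37 by an exact match. Shown are Hmgcs1, whose promoter was used to find the gene in that build, and Idi1 and Dhcr7, the members with the highest RPF relative to mRNA. Dhcr7 has 3 listed starts and the start with the most motifs is shown. Capitals mark TCACNCCAC (the core of a sterol regulatory element), CCAAT (bound by NF-Y) and GGGCGG (bound by Sp1), each on either strand.
Hmgcs1: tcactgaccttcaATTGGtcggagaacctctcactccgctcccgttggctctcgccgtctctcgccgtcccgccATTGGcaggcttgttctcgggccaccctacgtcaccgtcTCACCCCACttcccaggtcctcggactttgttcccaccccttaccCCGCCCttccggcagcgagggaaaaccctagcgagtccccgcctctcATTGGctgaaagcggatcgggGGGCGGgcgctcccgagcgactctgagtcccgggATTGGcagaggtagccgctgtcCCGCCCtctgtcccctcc
Idi1, chr13:8884602-8884901 (+ strand): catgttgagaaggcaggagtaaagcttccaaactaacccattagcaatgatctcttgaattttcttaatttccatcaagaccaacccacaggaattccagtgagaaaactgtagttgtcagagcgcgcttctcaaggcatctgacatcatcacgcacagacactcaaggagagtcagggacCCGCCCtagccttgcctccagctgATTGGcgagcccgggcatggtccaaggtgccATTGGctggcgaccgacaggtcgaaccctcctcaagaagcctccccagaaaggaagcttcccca
Dhcr7, chr7:151015869-151016168 (+ strand): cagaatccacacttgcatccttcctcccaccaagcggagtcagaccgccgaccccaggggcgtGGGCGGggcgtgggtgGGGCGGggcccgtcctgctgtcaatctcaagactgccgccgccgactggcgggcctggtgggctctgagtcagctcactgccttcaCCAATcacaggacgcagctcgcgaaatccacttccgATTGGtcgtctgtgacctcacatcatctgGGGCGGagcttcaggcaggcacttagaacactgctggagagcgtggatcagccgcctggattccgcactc
TCACNCCAC was in the Hmgcs1 promoter, and in none of the other listed promoters of members, against 1.24% of 32851 RefSeq promoters. CCAAT was in the promoters of all 5 genes (for Dhcr7 at 1 of 3 starts), against 37.4% of all promoters. GGGCGG was in the promoters of all 5 genes (for Dhcr7 at 2 of 3 starts), against 35.7%. The motifs did not overlap each other in the 3 sequences shown, and a match is a description of letters, not of binding.

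Hmgcs1 encodes the enzyme that makes HMG-CoA. It was listed at 0 FPKM on both of its rows in every library, so mRNA and RPF were 0 in all 4 libraries. A listed 0 does not show that the transcript was absent. Its promoter matched 2 scaffolds of NCBIM37 outside the assembled chromosomes and no chromosome. Of the 35 symbols of both assays whose RefSeq promoters matched only such scaffolds, 35 (100%) were listed at 0 in all 4 libraries, against 5636 of 16234 (34.7%) of those with a promoter on a chromosome. The 35 included Mia3, a cargo receptor of the endoplasmic reticulum, and Taf1a, a subunit of an RNA polymerase I factor. They also held the Y-linked multicopy genes Ssty1 and Ssty2, Srsy, and many symbols that begin with Gm. How many of the 35 are expressed in blastocysts was not tested, so the 100% and the 34.7% may not be of like genes. The nearest protein-coding neighbours of Hmgcs1 with rows in both assays, Ccl28 and Nim1k, were listed at 0 in every library, as was Zfp131. Ccl28, Nim1k and Zfp131 are themselves among the 35, so their values are not separate from that count. Paip1, a translation regulator farther off in the same gene order, was at 6.36 and 10.2 FPKM of mRNA and 47.7 and 29.7 FPKM of RPF. Nearer than Paip1, 4833420G17Rik was at 6.32 and 2.35 FPKM of mRNA and 1.09 and 2.40 FPKM of RPF. Tmem267, nearer still, was at 0.265 and 1.96 FPKM of mRNA and 0 FPKM of RPF. On the other side of Hmgcs1, AF067063 and Tcstv1 were also at 0 in every library, although they are not among the 35. Why Hmgcs1 was listed at 0 was not tested. No fold or test was given for Hmgcs1.

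Idi1 encodes the isomerase that interconverts the isopentenyl and dimethylallyl diphosphates, and lies at chr13:8884852-8891641 (+ strand). Its mRNA was at 9.22 and 11.5 FPKM in RNA-seq 1 and 2, and its RPF level at 54.8 and 69.9 FPKM in Ribo-seq 1 and 2. The replicates lay close together in both assays. The RPF levels corresponded to 19 and 22 footprints. After the median of each library was subtracted, both RPF values lay above both mRNA values.

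Fdps encodes farnesyl diphosphate synthase, which supplies both squalene and protein farnesylation, and lies at chr3:88897514-88905881 (- strand), where it shares 104 bases with a U6 snRNA. Its mRNA was at 32.1 and 53.9 FPKM and its RPF level at 79.8 and 63.1 FPKM, from 36.8 and 26.3 implied footprints. Fdps was the highest member in every library except Ribo-seq 2, where Idi1 was higher. The mRNA replicates differed by -0.731 (log2, RNA-seq 1 minus 2), just outside the central 95% range of -0.728 to 0.687 of 737 genes of a like level. After centring, both RPF values lay below both mRNA values.

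Sqle encodes squalene epoxidase, a rate-limiting oxygen-dependent step, and lies at chr15:59146632-59162747 (+ strand). Its mRNA was at 6.69 and 1.9 FPKM, and its RPF level at 4.93 and 1.36 FPKM. It was, before centring, the only member whose mean RPF level (3.14 FPKM) lay under its mean mRNA level (4.30 FPKM), apart from Hmgcs1 at 0. After centring, both RPF values lay below both mRNA values, as in Fdps. The first library was higher than the second in both assays. In mRNA the difference of 1.41 (log2) lay outside the central 95% range of -1.06 to 1.12 of 1997 genes of a like level. In RPF the difference of 1.33 lay inside the range of -4.02 to 4.17 and rested on 4 and 1 implied footprints.

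Lss encodes lanosterol synthase, which closes the sterol rings, and lies at chr10:75994333-76019883 (+ strand), where a lincRNA on the opposite strand, 4930483K19Rik, overlaps it by 11268 bases. Its mRNA was at 0.844 and 1.18 FPKM and its RPF level at 6.54 and 5.15 FPKM, from 7 and 5 footprints. Each pair of replicates lay close together, at a low level in both assays. A transcript of 1000 bases with 1 fragment would read 0.229 and 0.240 FPKM in the RNA-seq libraries, and with 3 fragments 0.686 and 0.719 FPKM.

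Cyp51 encodes the cytochrome P450 that demethylates lanosterol, and lies at chr5:4081145-4104746 (- strand). Its mRNA was at 1.33 and 0.234 FPKM and its RPF level at 7.14 and 4.72 FPKM, from 5 and 3 footprints. The mRNA replicates were 5.69-fold apart, the widest of the members above 0. The lower value, in RNA-seq 2, was near that of 1 fragment on a transcript of 1000 bases (0.240 FPKM).

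Dhcr7 encodes a reductase of the final steps to cholesterol, and lies at chr7:151009050-151034315 (+ strand). Its mRNA was at 3.79 and 2.37 FPKM and its RPF level at 43.1 and 20.4 FPKM, from 28 and 12 footprints. The first library was higher in both assays. The RPF replicates differed by 1.05 (log2), inside the central 95% range of -1.75 to 1.74 of 1382 genes of a like level.

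**Figure D2:**
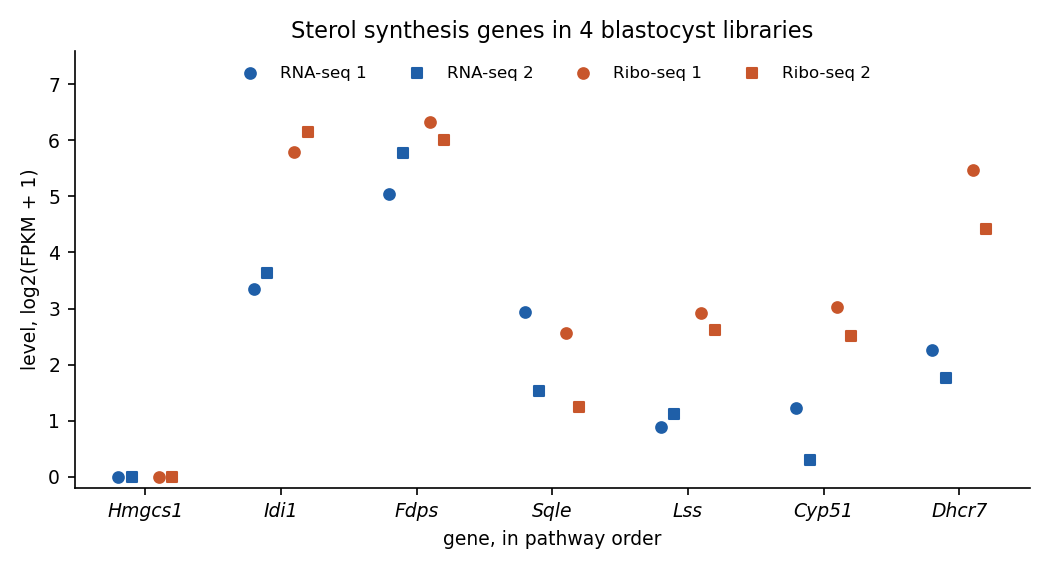
Level of each member as log2(FPKM + 1) (y axis) in the 2 RNA-seq libraries (blue) and the 2 Ribo-seq libraries (orange), with genes in pathway order (x axis) and circles and squares for replicates 1 and 2. Hmgcs1 is at 0 in all 4 libraries. Before centring, Idi1 and Dhcr7 show the widest gap between assays (for Dhcr7, 3.79 and 2.37 FPKM of mRNA and 43.1 and 20.4 FPKM of RPF).

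The order of mean mRNA, per length of transcript, was Fdps (43.0 FPKM), Idi1 (10.4 FPKM), Sqle (4.30 FPKM), Dhcr7 (3.08 FPKM), Lss (1.01 FPKM), Cyp51 (0.783 FPKM) and Hmgcs1 (0 FPKM). The replicate ranges of Sqle and Dhcr7 overlapped, as did those of Lss and Cyp51, and the other neighbours were apart. The order of mean RPF, per length of coding sequence, was Fdps (71.4 FPKM), Idi1 (62.3 FPKM), Dhcr7 (31.8 FPKM), Cyp51 (5.93 FPKM), Lss (5.85 FPKM), Sqle (3.14 FPKM) and Hmgcs1 (0 FPKM). Here the ranges of Fdps and Idi1 overlapped, as did those of Cyp51 and Lss. Dhcr7 stood with Sqle in mRNA but above it, with ranges apart, in RPF. The median member lay at percentile 73.4 of all symbols in mean mRNA and 64.5 in mean RPF, although these percentiles count the many genes at 0. Among genes of at least 1 FPKM they were 26.8 and 26.7.

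**Figure D3:**
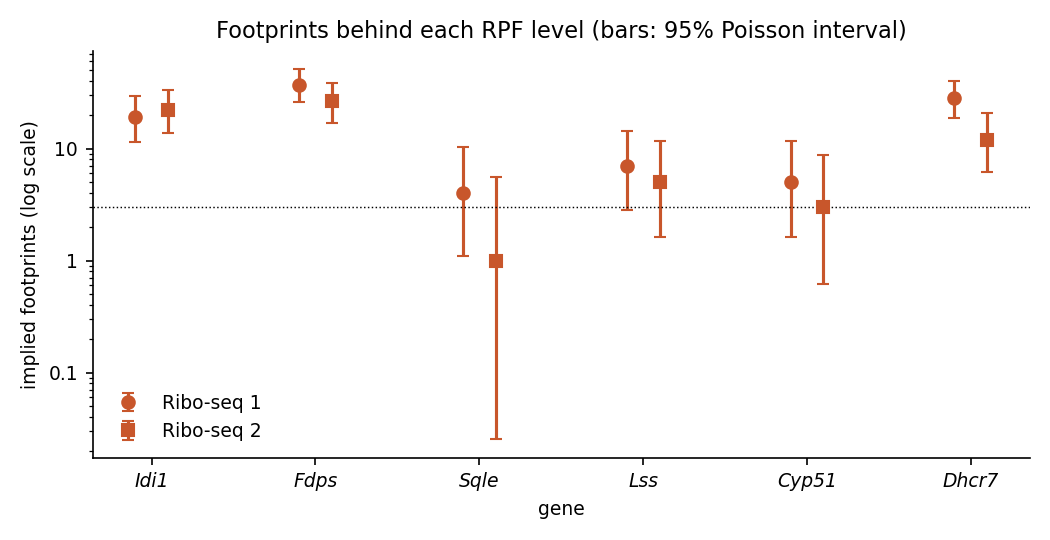
Implied footprints (y axis, log scale) behind the RPF level of each member above 0 (x axis) in Ribo-seq 1 (circles) and Ribo-seq 2 (squares), with 95% Poisson intervals that cover counting error only. The dotted line marks 3 footprints. Sqle in Ribo-seq 2 rests on 1 footprint, with an interval of 0.0253 to 5.57, and Dhcr7 in Ribo-seq 1 on 28, with an interval of 18.6 to 40.5.

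Whether these genes carried more or fewer ribosomes than their mRNA would give was compared with limma on log2(FPKM + 1), over the 8327 genes with a mean of at least 1 FPKM in both assays. Medians of the libraries were 1.5 (log2) higher in RPF than in mRNA, so every difference is given relative to that shift. Of the 7 members, 5 could be tested, and 0 of the 5 passed an adjusted p of 0.05 (Benjamini-Hochberg over 8327 genes) with a difference of at least 1 on the log2 scale. In the background, 12.0% of all genes passed (996), 6.65% higher in RPF (554) and 5.31% lower (442). Without centring, 4113 genes were higher and 65 lower. At an unadjusted p of 0.05, 2 of 5 members passed, against 36.3% of all genes. Lss was just inside the filter with a mean mRNA of 1.01 FPKM, and Cyp51 (0.783 FPKM) just outside it.

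Dhcr7 had the highest difference, with RPF above mRNA by 1.43 ± 0.45 (log2, SE, n = 2 libraries an assay; limma, adjusted p = 0.108). Its 95% interval ran from 0.19 to 2.67, and it lay at percentile 91.1 of all genes tested. Idi1 followed at 0.98 ± 0.30 (95% interval 0.16 to 1.79, limma, adjusted p = 0.102). Lss was at 0.26 ± 0.26 (limma, adjusted p = 0.497). Sqle had the lowest difference, at -1.84 ± 0.70 (95% interval -3.78 to 0.10, limma, adjusted p = 0.150) and percentile 7.90, and Fdps was at -0.75 ± 0.36 (limma, adjusted p = 0.211). The median of the 5 was 0.26, the value of Lss, against -0.24 over all genes tested, whose quartiles were -1.0 and 0.55. It was 0.83 with a pseudocount of 0.1 and 0.89 with quantile normalization. With a mean of at least 10 FPKM, which left 2 members, it was 0.03. After centring, both RPF values lay above both mRNA values in 3 members, against 28.8% of all genes, and below them in 2 members, against 38.7%. The assays thus did not overlap in 5 of 5 members, against 67.5% of all genes. An exact permutation test of 2 against 2 libraries cannot go below p = 0.333 and was not used.

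**Figure D4:**
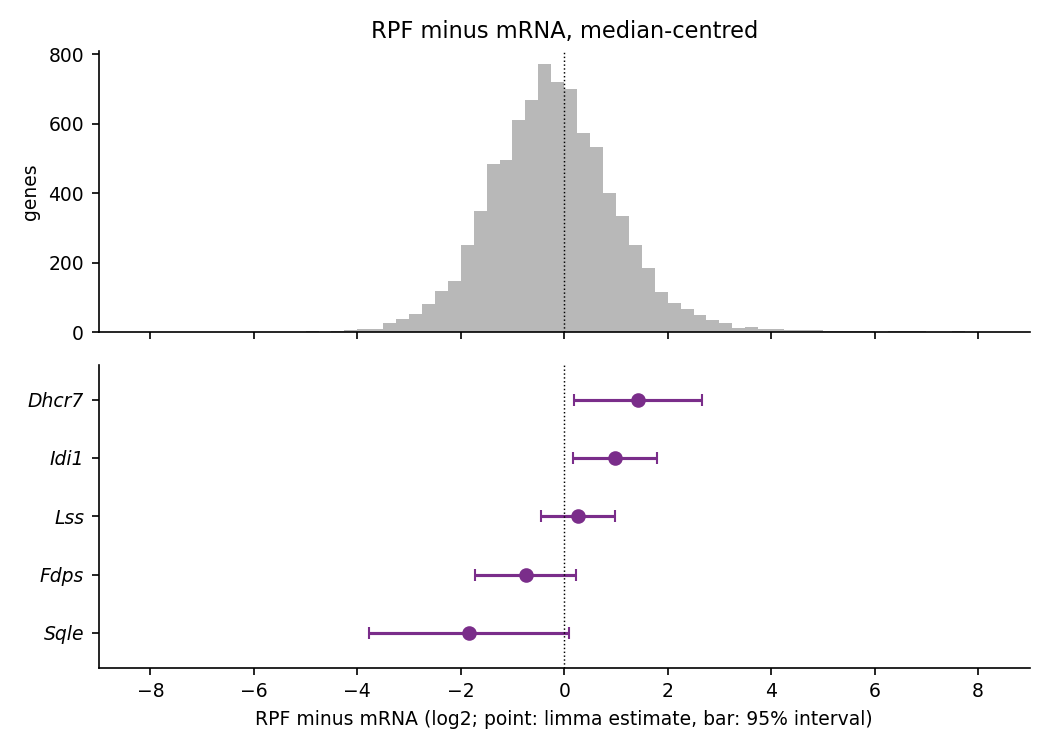
Top, the number of genes (y axis) by RPF minus mRNA on the log2 scale after median centring (x axis) for the 8327 genes tested. Bottom, the 5 members tested, as limma estimates with 95% intervals, from Dhcr7 (1.43) at the top to Sqle (-1.84) at the bottom. The dotted line is 0, and the intervals of Dhcr7 and Idi1 lie above it while the other 3 cross it.

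The count of 0 changed when a Ribo-seq library was left out. Without Ribo-seq 1, Idi1 (1.19, limma, adjusted p = 0.0301) and Sqle (-2.46, limma, adjusted p = 0.0217) passed while Dhcr7 was at 0.95 (limma, adjusted p = 0.0780). Without Ribo-seq 2, Dhcr7 (1.91, limma, adjusted p = 0.0117) passed while Sqle was at -1.22 (limma, adjusted p = 0.156) and Idi1 at 0.76 (limma, adjusted p = 0.110). These fits assume that the lone Ribo-seq library varies like the RNA-seq libraries. Without RNA-seq 1, Sqle was at -1.13 (limma, adjusted p = 0.477) and Fdps at -1.10 (limma, adjusted p = 0.341), and without RNA-seq 2, Fdps was at -0.39 (limma, adjusted p = 0.657).

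The other enzymes of the pathway also lay on both sides of 0. Of 14 further enzymes, 13 could be tested, with 5 above 0, 8 below 0 and a median of -0.13. By limma 0 passed at the adjusted p, and 4 at an unadjusted p of 0.05, against 12.0% and 36.3% of all genes. The lowest was Mvk, mevalonate kinase, at -1.99 (limma, adjusted p = 0.0516), with 6.56 and 10.6 FPKM of mRNA and 7.59 and 4.18 FPKM of RPF. Its RPF level rested on 4.16 and 2.07 implied footprints. Hsd17b7 did not pass the filter, with 0.970 and 0 FPKM of mRNA. All 14 were above 0 in at least 1 library, which leaves Hmgcs1 as the only enzyme of the 21 listed at 0 throughout.

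**Figure D5:**
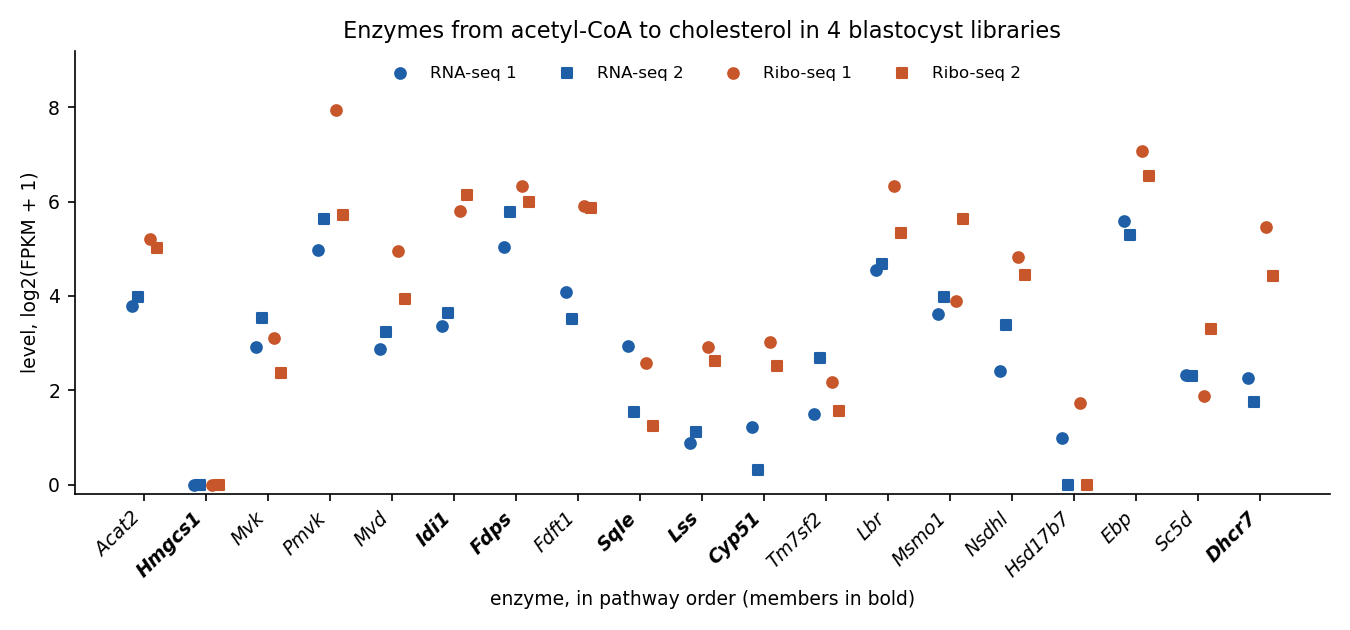
Level as log2(FPKM + 1) (y axis) of 19 enzymes in pathway order (x axis, members in bold) in 2 RNA-seq (blue) and 2 Ribo-seq libraries (orange), with circles and squares for replicates 1 and 2. Hmgcs1 alone is at 0 in all 4 libraries. Before centring, the values of Mvk overlap between assays (6.56 and 10.6 FPKM of mRNA, 7.59 and 4.18 FPKM of RPF). Those of Idi1 do not (9.22 and 11.5 FPKM of mRNA, 54.8 and 69.9 FPKM of RPF). After centring the assays overlap in neither gene, with RPF below mRNA in Mvk and above it in Idi1.

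Among 10 genes of SREBP control, 7 could be tested, 0 were higher in RPF and 2 were lower, against 6.65% and 5.31% of all genes. Their median was -0.75, against -0.24 over all genes. Of these, Rnf139, a ubiquitin ligase of the endoplasmic reticulum, was at -2.11 (limma, adjusted p = 0.0343), with 4.31 and 3.88 FPKM of mRNA and 3.11 and 1.71 FPKM of RPF. It did not pass with a pseudocount of 0.1 (limma, adjusted p = 0.0563). Insig2, which retains SREBP in the endoplasmic reticulum, had the highest difference of the list at -0.16, with 3.94 and 27.3 FPKM of RPF. Srebf1, Srebf2 and Scap did not pass the filter. Srebf2 was at 0.253 and 0.935 FPKM of mRNA and 4.69 and 4.52 FPKM of RPF.

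Among 13 genes of uptake, transport and efflux, 8 could be tested and 2 passed, both higher in RPF, against 6.65% of all genes. Their median was -0.27. Npc2, which binds cholesterol in lysosomes, was at 88.9 and 76.8 FPKM of mRNA and 1287 and 1448 FPKM of RPF, a difference of 2.53 (limma, adjusted p = 0.0245). Stard4, a cytosolic sterol carrier, was at 2.46 and 1.10 FPKM of mRNA and 38.6 and 26.1 FPKM of RPF, a difference of 2.10 (limma, adjusted p = 0.0472), which did not pass with a pseudocount of 0.1 (limma, adjusted p = 0.0709) or quantile normalization (limma, adjusted p = 0.0522). Nr1h2, a sterol-sensing receptor (LXR-beta), was lowest at -2.76 (limma, adjusted p = 0.0520), with RPF from 4.04 and 1.01 implied footprints.

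Among 8 genes that use isoprenoids for other products, all could be tested and the median was -0.70. By limma 0 passed at the adjusted p, and 3 at an unadjusted p of 0.05, which 36.3% of all genes passed. Among 9 genes of fatty acid synthesis, which SREBF1 also controls, 6 could be tested, 1 was higher in RPF, against 6.65% of all genes, and 0 were lower, with a median of 0.64. Scd2, a stearoyl-CoA desaturase, was at 4.36 and 2.24 FPKM of mRNA and 56.5 and 51.7 FPKM of RPF, a difference of 2.22 (limma, adjusted p = 0.0386), which did not pass with a pseudocount of 0.1 (limma, adjusted p = 0.0620). All 5 of these calls were lost in the fits without RNA-seq 1 or without RNA-seq 2, where 0 of the 8327 genes passed (1293 and 1250 at an unadjusted p of 0.05), and Npc2 then had adjusted p = 0.310 and 0.329 (limma).

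Genes with levels most like the members were found from the median profile of the 5 tested members, which was 2.94 and 1.75 in mRNA and 5.46 and 4.42 in RPF (log2(FPKM + 1)). Among the 3 nearest of all other genes tested, by Euclidean distance over 4 libraries, were Adpgk (distance 0.528), a glucokinase that uses ADP, and Ccdc117 (0.589). Adpgk was at 9.44 and 2.81 FPKM of mRNA and 42.2 and 24.03 FPKM of RPF.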

How the data were processed

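RNA-seq and Ribo-seq of blastocysts were analysed, with 2 libraries for each assay. The authors deposited FPKM per gene and library. By the study's methods, reads were trimmed with Trim Galore 0.4.2 (RNA-seq) or cutadapt 1.14 (Ribo-seq), rRNA reads of Ribo-seq were discarded with Bowtie2 2.2.2, the rest were mapped to the mm9 transcriptome with STAR 2.5.3a, with up to 20 places per read, and Cufflinks 2.2.1 gave FPKM on transcripts (RNA-seq) or coding sequences (Ribo-seq). For a symbol on several rows the highest FPKM was kept. Values were put on the log2(FPKM + 1) scale, which understates fold changes of low genes, and were centred on the median of each library. Genes with a mean of at least 1 FPKM in both assays were fitted with limma 3.58.1 (R 4.3.3), without a replicate block, and passed at an adjusted p of 0.05 and a log2 difference of 1. The fit was tested on simulated data, where 67, 67 and 66 of 8327 genes were changed by 2, 3 and 4 (log2) and all others left unchanged. It recovered 23.9%, 47.8% and 75.8% of them, and 4.85% of the calls fell on genes left unchanged. Such rates depend on the share of genes changed, so they are not the rates of the reported fit.

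Depth was estimated from the steps of low FPKM values with the transcript lengths (RNA-seq) or coding lengths (Ribo-seq) of GENCODE vM1. With a tolerance of 0.1, 64.1% and 61.2% of the low values used in RNA-seq and 83.5% in each Ribo-seq library were near a whole fragment. Chance gives 20% at a total fixed in advance. Here the total was chosen to fit these same values, so the shares describe the fit and are not a test. Footprints use the longest annotated coding sequence, and their intervals cover counting error only. Python 3.11.15, numpy 2.4.6, pandas 2.3.3, scipy 1.17.1, numba 0.67.0 and matplotlib 3.10.9 were used. The members and gene lists were chosen with earlier results of these data known. Genes named beside the members were those of a list that passed, its highest and lowest, and the 3 nearest in profile. The other genes named (Hsd17b7, Srebf1, Srebf2, Scap, and the genes named beside Hmgcs1) were chosen after their values were seen. Some genes that this rule would name are not reported here, although the counts and medians of their lists include them. Alternatives were a pseudocount of 0.1, other filters, other scaling, summed rows of repeated symbols, a variance trend, a replicate block and each library left out.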

Additional observations from a re-analysis of the deposited data

How the results depend on the processing

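The numbers of genes that passed moved with several choices. Over all genes, 996 passed in the reported fit, 462 with a pseudocount of 0.1, 4492 with no filter, 4178 with no centring and 1577 with a variance trend. The reported split was 554 higher and 442 lower in RPF, against 4113 and 65 with no centring. With each library left out in turn the number ran from 0 to 3255. Of the members, 0 passed in the reported fit, 2 with no filter (Idi1 and Dhcr7), 3 with no centring, 1 with quantile normalization (Lss) and 0 to 2 with a library left out. With no filter Cyp51 was at 0.78 (limma, adjusted p = 0.232). Of the other gene lists, 5 genes passed in the reported fit, 2 with a pseudocount of 0.1, 11 with no filter, 2 with a mean of at least 10 FPKM, 18 with no centring, 8 with a variance trend and 0 to 17 with a library left out. With no centring every difference was 1.5 (log2) higher by construction, which took Fdps to 0.76 and the medians of 4 other gene lists from below 0 to above it. For the other changed counts the cause was not tested. Counts with a Ribo-seq library left out assume that the lone library varies like the RNA-seq pair.

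Replicate numbers do not pair the libraries by any label, and same-numbered libraries did not deviate together (r = 0.0099 across 8327 genes). With the replicate number as a block, 0 genes passed over all genes (limma, 2594 at an unadjusted p of 0.05), 0 of the members and 0 of the gene lists. The median percentile of the members, 73.4 in mRNA and 64.5 in RPF, became 26.8 and 26.7 among genes of at least 1 FPKM. Among the members, depth limits Sqle, Lss and Cyp51, which rested on at most 7 footprints a library. Of the other lists, Rnf139, Mvk, Nr1h2 and Insig2 rested on few footprints as well.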
